A study of Homo sapiens with 6 samples.

Results

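The 10 genes described here encode the best known transcriptional outputs of the Notch pathway: the HES repressors HES1, HES2, HES4, HES5, HES6 and HES7, the related HEY repressors HEY1, HEY2 and HEYL, and the feedback inhibitor NRARP. They were chosen by name, with earlier results of these data known, and all 10 are among the 18249 genes of the deposited expression table. The table holds 3 RNA-seq libraries of TE-10, a cell line of human esophageal squamous carcinoma: METTL3 knockdown with hairpin 1, METTL3 knockdown with hairpin 2, both stable short hairpin RNA lines, and a control with normal METTL3. METTL3 is the methyltransferase that deposits N6-methyladenosine (m6A) on mRNA, as the active partner in a larger writer complex. A list of m6A regions comes from antibody enrichment of methylated RNA in TE-10 cells with normal METTL3, where 2 immunoprecipitated libraries, made with different antibodies, accompanied 1 input library. There is 1 library per hairpin and 1 control, and the labels do not say that any came from separate cultures. The p-values therefore measure only the spread between the 2 hairpin libraries. In it, differences of hairpin, of line and of technical handling cannot be told apart.

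When a Notch receptor is cleaved, its intracellular part enters the nucleus, joins the DNA-binding protein RBPJ and a MAML coactivator, and switches on HES, HEY and NRARP genes. HES and HEY proteins are basic helix-loop-helix repressors that bind DNA as dimers and recruit corepressors. In stratified epithelia such as the esophagus, Notch signalling is known for its role in the balance between basal proliferation and differentiation.

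The letters that RBPJ binds can be read in the promoters of several of these genes, which are shown because they link the members to the pathway without using any expression value. RefSeq promoter windows (GRCh38.p14, 250 bases before to 50 after the annotated gene start) were found for 9 of the 10 genes; that of HEY1 was not used here. The capitals mark TGGGAA, the core of the RBPJ motif, or TTCCCA, the same letters on the other strand. Windows are written 5′ to 3′ along the gene: HES1 at chr3:194135898-194136197 (plus strand), HES4 at chr1:1000048-1000347 (minus strand) and HES5 at chr1:2530214-2530513 (minus strand).
HES1: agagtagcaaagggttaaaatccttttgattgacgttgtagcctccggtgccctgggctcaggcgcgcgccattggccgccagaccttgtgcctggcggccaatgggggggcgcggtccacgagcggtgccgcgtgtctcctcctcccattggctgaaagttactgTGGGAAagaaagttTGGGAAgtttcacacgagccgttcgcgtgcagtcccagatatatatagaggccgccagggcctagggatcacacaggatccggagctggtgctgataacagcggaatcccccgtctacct
HES4: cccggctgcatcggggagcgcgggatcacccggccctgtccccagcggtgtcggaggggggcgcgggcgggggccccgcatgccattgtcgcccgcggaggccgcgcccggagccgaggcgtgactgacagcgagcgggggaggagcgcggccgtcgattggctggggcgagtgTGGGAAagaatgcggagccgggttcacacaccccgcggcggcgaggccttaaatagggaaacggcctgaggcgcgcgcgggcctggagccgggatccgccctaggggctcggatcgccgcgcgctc
HES5: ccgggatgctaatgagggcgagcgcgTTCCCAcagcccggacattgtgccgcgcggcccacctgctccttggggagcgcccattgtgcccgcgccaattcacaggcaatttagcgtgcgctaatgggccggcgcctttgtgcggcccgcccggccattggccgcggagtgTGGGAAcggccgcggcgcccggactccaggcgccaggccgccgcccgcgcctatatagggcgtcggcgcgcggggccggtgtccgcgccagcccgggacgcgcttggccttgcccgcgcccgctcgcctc
HES1 held the core at bases 84 to 79 and again at bases 70 to 65 before the gene start. HES4 held it at bases 76 to 71, and HES5 at bases 80 to 75 and, reversed, at bases 224 to 219. The longer form TGTGGGAA was present in these 3 windows and in none of the other members' windows searched.

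HEY2 and HEYL held the core as well, with CGTGGGAA as the longer form at the reversed site of HEYL and at both sites of HEY2. Site 2 of HEY2 spans the gene start. The sites are given as 30-base stretches with the core in capitals, from chr6:125749407-125749436 and chr6:125749617-125749646 for HEY2 (plus strand) and chr1:39639804-39639833 and chr1:39639725-39639754 for HEYL (minus strand), all GRCh38.p14.
HEY2 site 1: tccgcggccgcgTTCCCAcgcctcggctgg
HEY2 site 2: agagttgcggcgTGGGAAagagccgctagg
HEYL site 1: ccgcctagggccTTCCCAcggctcggcggc
HEYL site 2: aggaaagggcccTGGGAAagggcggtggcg
In all, 5 of the 9 windows held TGGGAA on either strand, against 24.0% of 35116 promoter windows of the same length. TGTGGGAA was in 3 of 9 windows and in 1.71% of all windows, and CGTGGGAA in 2 of 9 and in 0.826%. The windows of HES2, HES6, HES7 and NRARP had no match, which says only that these letters are not in the window. Letters that HES and HEY proteins are known to bind were searched too. CACNAG (the N box) was in 4 of 9 windows, HES1, HES2, HES7 and NRARP, against 38.0% of all windows. CACGNG was in 3 of 9, HES1, HES7 and NRARP, against 30.5%, and CACGTG (the E box) in 0 of 9 against 7.26%. CACNAG and CACGNG overlap, and the HES1 window held each 4 times, with 2 of the matches on the same bases.

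The libraries differ in ways that bear on every result below. METTL3 had a value of 8.35 with hairpin 1 and 4.99 with hairpin 2, against 20.81 in the control. Column sums ran between 608291 and 627152 in a unit the authors do not state, so sequencing depth is unknown. The squamous markers expected of TE-10, 10 of 10, were at 1 or more in every library. Their values summed to 3667.11 with hairpin 1 and 2358.60 with hairpin 2, against 3775.26 in the control. With hairpin 1, 8 of the 10 were lower than the control, where 52.1% of tested genes were, and 0 were 2-fold lower. With hairpin 2, 10 of 10 were lower, where 6147 of 12375 tested genes were. Of these 10, 2 were at least 2-fold lower, where 0.978% of tested genes were. The hairpin 2 library stood apart in markers of an embryonic kidney cell line. All marker lists were chosen with earlier results of these data known, so these sums and counts are a description and no independent check. Of the kidney line markers tested, all but HOXD13 reached a value of 1 only in the hairpin 2 library. The 11 markers summed to 8.71 with hairpin 1 and 248.57 with hairpin 2, against 7.17 in the control. Most of the hairpin 2 sum came from 2 of them: CDKN2A, a cell cycle inhibitor, at 0 and 144.68 in the knockdown libraries and at 0.04 in the control, and the homeobox gene HOXB9, at 0.35 and 53.12, against 0.03. The hairpin 2 difference of CDKN2A, 7.13 in log2(value + 1), was the highest of all genes tested. The other 9 summed to 8.36 with hairpin 1 and 50.77 with hairpin 2, against 7.10 in the control, and EYA1, PAX2, WT1 and LHX1 were under 1 in every library. In the hairpin 2 library 0 of the 11 were listed at 0, whereas 5 were with hairpin 1 and 4 in the control. The insulin receptor substrate IRS4 was at 0.04 and 23.56 in the knockdown libraries and at 0.05 in the control, and the neurofilament gene NEFL at 0.01 and 4.4, and at 0 in the control. The fibroblast, leukocyte and endothelial marker lists each summed to at most 3.75 in any library, with COL1A1 the highest gene among them. The 4 neuroendocrine markers were also highest with hairpin 2, with sums of 1.75 and 8.24 in the knockdown libraries and 1.22 in the control. Most of the hairpin 2 sum came from SYP, at 1.17 and 6.34, against 0.63 in the control. The hairpin 2 rise was thus not confined to the kidney line list. Hairpins are therefore given separately throughout, and the part of these marker differences in any member's value was not tested.

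**Figure D1:**
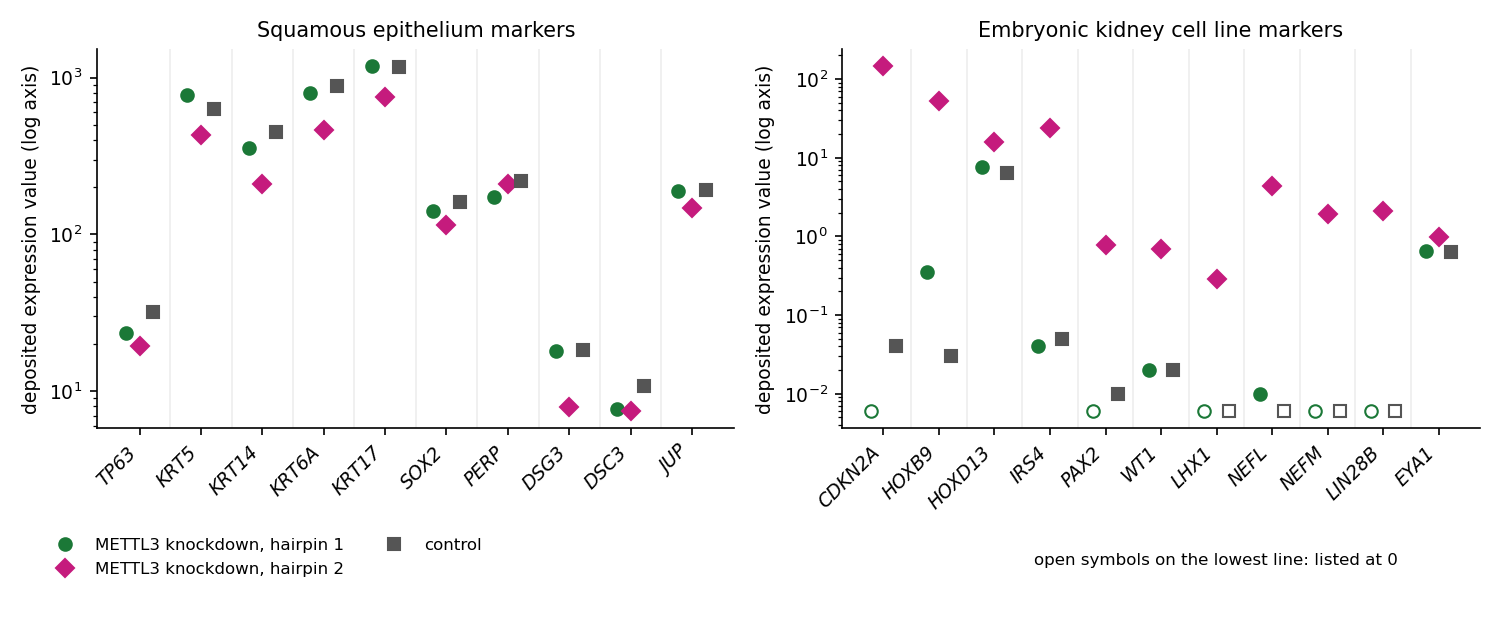
Deposited expression value (log axis) of 10 squamous epithelium markers and 11 embryonic kidney cell line markers, 1 point per library. IRS4 stands at 23.56 in the hairpin 2 library, and at 0.04 with hairpin 1 and 0.05 in the control.

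Between the knockdown libraries the 10 genes differed in the same direction: each had a higher value with hairpin 2 than with hairpin 1, as did 53.2% of 12375 genes tested. Against the control, 8 of 10 were lower with hairpin 1 (52.1% of genes tested) and 9 of 10 were higher with hairpin 2 (50.0%). HES5 and HEY2 reached a value of 1 only with hairpin 2, so they had to be higher there. HES7 reached it in no library and is not among the genes tested. Of the 7 members that reached 1 without hairpin 2, 7 were higher with it than with hairpin 1, and 6 were higher than the control. The matching shares over all such genes were not computed. With hairpin 1 the differences were small, between -0.71 and 0.35 on the log2(value + 1) scale. With hairpin 2 they ran between -0.01 and 2.29, and HES4, HES5, HEY1 and HEY2 were at least 2-fold higher, as were 3.63% of genes tested. HES1 was the member nearest to its control value with hairpin 2.

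**Figure D2:**
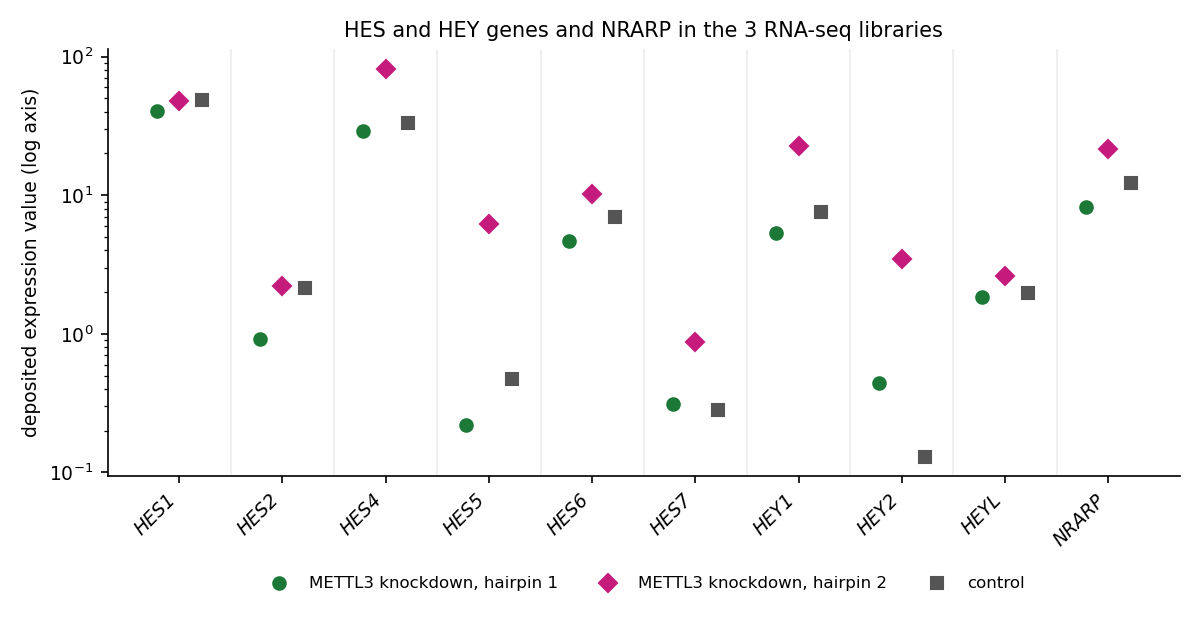
Deposited expression value (log axis) of each member, 1 point per library. The hairpin 2 point is the highest for 9 of the 10 genes, and for HES1 it lies at 48.02, between 40.66 with hairpin 1 and 48.44 in the control.

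HES1 is the prototype of the family and a direct Notch target in many tissues. It had values of 40.66 with hairpin 1 and 48.02 with hairpin 2, against 48.44 in the control. The log2 differences from the control were -0.25 and -0.01. All 3 libraries were close together, and 29.0% of tested genes had a larger hairpin 2 minus hairpin 1 difference than HES1.

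HES4, a close relative of HES1, behaved otherwise in the hairpin 2 library. Its values were 29.26 with hairpin 1 and 81.75 with hairpin 2, against 33.2 in the control. The ratio to the control was 0.881 with hairpin 1 and 2.46 with hairpin 2. The hairpin 2 library was thus the only high one, and the difference of 1.27 in log2 ranked 269th from the highest among 12375 genes tested.

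HES5, known best as a Notch target of neural progenitors, was near 0 in TE-10. It had values of 0.22 with hairpin 1 and 6.2 with hairpin 2, against 0.47 in the control. Its log2 difference with hairpin 2, 2.29, was the highest of the members and ranked 71st among all genes tested. Only the hairpin 2 library brought HES5 over the filter described next.

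Genes were tested when at least 1 library had a value of 1 or more. By this filter 9 of the 10 members were tested, and 7 would have been without the hairpin 2 library; HES5 and HEY2 passed through that library alone and so had to differ in it. HES7, a gene of the oscillator that segments the embryonic body axis, did not pass. Its values were 0.31 and 0.87 in the knockdown libraries and 0.28 in the control.

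HES2 and HES6 are less closely tied to Notch. HES2 had values of 0.92 with hairpin 1 and 2.2 with hairpin 2, against 2.14 in the control. Here the hairpin 1 library was the one that stood apart, and only 1.23% of tested genes had a lower hairpin 1 difference than HES2 (-0.71). HES6, which in mouse counteracts HES1, had values of 4.7 with hairpin 1 and 10.26 with hairpin 2, against 6.96 in the control. The control lay between the knockdown libraries, with log2 differences of -0.48 and 0.50.

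The HEY genes are Notch targets of the heart and vessels that are also made in other tissues. HEY1 had values of 5.37 with hairpin 1 and 22.73 with hairpin 2, against 7.57 in the control. It was low in 2 libraries and high in the third, and the ratio of hairpin 2 to hairpin 1, 4.23, was the highest among members with values of at least 1 in both. HEY2 had values of 0.44 with hairpin 1 and 3.46 with hairpin 2, against 0.13 in the control. It was the one tested member higher than the control with both hairpins, from a control value near 0. HEYL had values of 1.83 with hairpin 1 and 2.6 with hairpin 2, against 1.98 in the control. Its log2 differences were -0.07 and 0.27, and 22.4% of tested genes had a higher one with hairpin 2.

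NRARP is an ankyrin repeat protein that binds the Notch transcription complex and limits its activity. It had values of 8.16 with hairpin 1 and 21.41 with hairpin 2, against 12.17 in the control. The control lay between the knockdown libraries. With hairpin 1, 3.46% of tested genes had a lower difference than NRARP (-0.52), and with hairpin 2, 5.71% had a higher one than its 0.77.

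Set against all genes, the members' counts read as follows, as a description only, since members were chosen with earlier results known. With hairpin 1, 0 of 10 were at least 2-fold from the control in either direction, where 0.646% of tested genes were. That count depends on the pseudocount of 1: with 0.1 it was 2, HEY2 higher and HES2 lower, where 2.08% of tested genes were past 2-fold. Values lower than the control by any amount were found for 8 of the 9 tested members and for 52.1% of tested genes, and the median difference was -0.27 over these members and -0.01 over all genes. With hairpin 2, 4 of 9 tested members were at least 2-fold higher and 0 lower, where 3.63% and 0.978% of tested genes were. Without HES5 and HEY2, which passed the filter only through this library, 2 of 7 were at least 2-fold higher, against 1.67% of the 11856 genes that passed without it. The median difference with hairpin 2 was 0.50 over these 7 and 0.00 over all genes. The order hairpin 1 below control below hairpin 2 held for 7 of the 9 tested members and for 21.5% of tested genes. Among genes that passed the filter without hairpin 2 it held for 6 of 7 members and for 20.5% of genes. The comparisons share the control library, so its value enters both differences. The signs of HES1 and HES2 with hairpin 2 rest on differences of -0.01 and 0.03, and after quantile normalization these were 0.01 and -0.09.

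**Figure D3:**
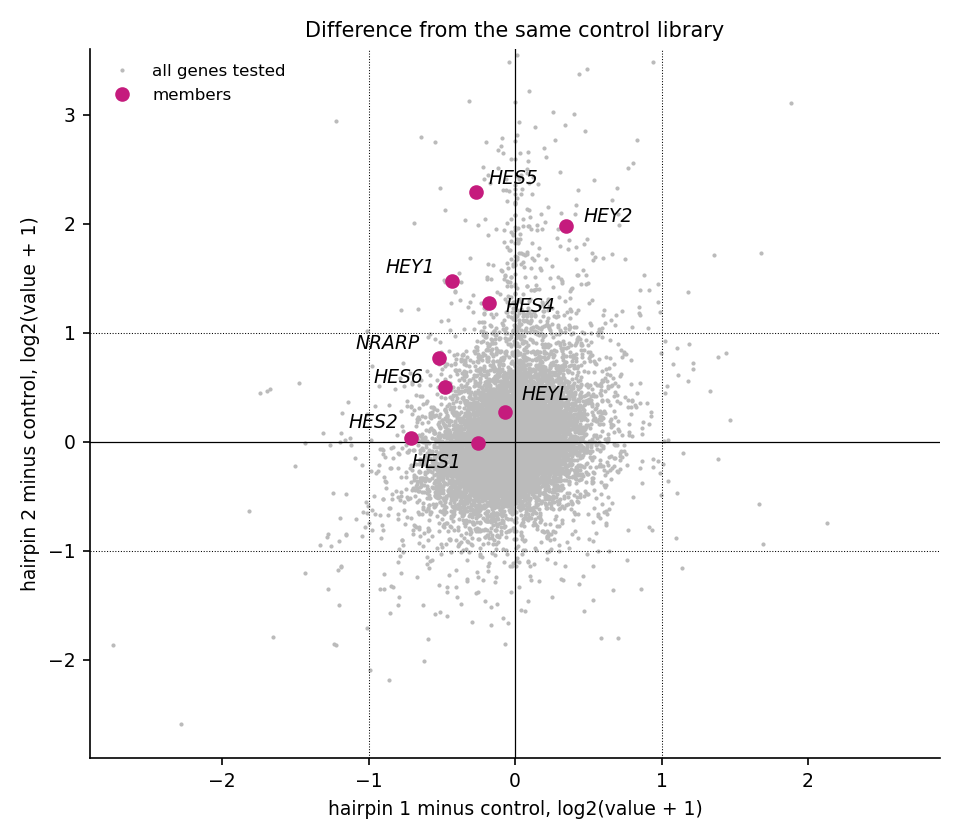
Difference from the control in log2(value + 1) with hairpin 1 (x axis) and hairpin 2 (y axis) for the genes tested, with the 9 tested members labelled; dotted lines mark 2-fold, and 9 genes lie outside the axes. HES5, HEY2, HEY1 and HES4 lie above the upper line, and 0 members lie beyond either vertical line.

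Taking both knockdown libraries as 1 group against the control, limma found no member and no gene past an adjusted p of 0.05. Of the 12375 genes tested, 0% were called, and 162 (1.31%) had an unadjusted p under 0.05, 0 of them members. The member with the highest estimate was HEY2, with a log2 fold change of 1.17 (SE 0.737; limma adjusted p = 1). HES4 was at 0.55 (SE 0.569) and HES1 at -0.13 (SE 0.255). METTL3, the gene knocked down, was at -1.54 (SE 0.327) and was not called either. Not being called therefore does not tell that a gene, here or in the lists below, was unchanged. The fit has 1 residual degree of freedom, which comes from how far the hairpin libraries lie from each other, so a gene on which they differ as much as HES5 has a large error (log2 fold change 1.01, SE 0.995). HES1 averaged 44.3 ± 5.20 in knockdown libraries (SD, n = 2) and was at 48.44 in the control, while HES4 averaged 55.5 ± 37.1 and was at 33.2 in the control. RNA was measured in bulk, so a change in the number of cells of a type and a change in RNA per cell cannot be told apart.

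The 4 members that were at least 2-fold higher with hairpin 2 were so in the library whose embryonic kidney cell line markers summed to 248.57, against 7.17 in the control. With hairpin 1, where these markers summed to 8.71, the same 4 genes had log2 differences of -0.18 (HES4), -0.27 (HES5), -0.43 (HEY1) and 0.35 (HEY2). No promoter window of HEY1 was searched for TGGGAA. These letters were in the windows given above for HES4, HES5 and HEY2, and also for HES1 and HEYL, whose hairpin 2 differences were -0.01 and 0.27. NRARP and HES6, with no match in the window, were at 0.77 and 0.50.

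Other genes of the pathway were looked at as lists, and 0 of their members passed limma's adjusted p. Receptors had 2 of 3 tested members lower with hairpin 1 and 1 lower with hairpin 2, with medians of -0.12 and 0.04. Ligands had 3 of 4 lower with hairpin 1 and 2 with hairpin 2, with medians of -0.20 and -0.18. The receptors with the highest control values were NOTCH3 (11.85 and 13.38, against 12.95) and NOTCH2 (4.71 and 5.18, against 4.15), and the ligands were JAG2 (22.58 and 21.19, against 28.27) and JAG1 (9.8 and 6.06, against 10.97). Neither list had a member at 2-fold with either hairpin. Among 9 nuclear factors, RBPJ included, 6 were lower with hairpin 1 and 4 with hairpin 2, and 0 reached 2-fold. RBPJ itself was at 7.94 and 7.44 in the knockdown libraries and at 8.64 in the control. SNW1, which joins RBPJ complexes, was at 44.58 and 40.48, against 39.41 in the control. EP300, the acetyltransferase recruited by MAML proteins, was at 14.73 and 10.01, against 12.24 in the control.

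Proteins that work with HES and HEY repressors were measured too. Of 10 corepressor genes, 5 were lower with hairpin 1 and 4 with hairpin 2, with medians of -0.00 and 0.12, and 0 reached 2-fold. The Groucho relative TLE5 (listed as AES) was at 401.65 and 315.12, against 391.06 in the control, and the histone deacetylase HDAC1 at 81.93 and 92.71, against 78.95.

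Among related helix-loop-helix genes, 2 of 8 tested were at least 2-fold higher with hairpin 2, where 3.63% of all genes were, and both encode ID proteins, which pair with helix-loop-helix factors and keep them off DNA. ID2 was at 13.29 with hairpin 1 and 51.11 with hairpin 2, against 8.85 in the control. ID4 was at 4.78 with hairpin 1 and 12.46 with hairpin 2, against 3.71 in the control. Both were thus highest in the hairpin 2 library, the one with the kidney line markers at 248.57. Of the other ID genes, ID1 was at 355.09 and 321.02, against 293.88, and ID3 at 128.24 and 160.54, against 95.66 in the control.

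Of 5 tested genes that HES and HEY proteins are known to repress, 2 were lower with hairpin 1 and 1 with hairpin 2. The list had 1 member at least 2-fold higher with hairpin 2, GATA4, a transcription factor of the heart, at 0.04 and 3.13 in the knockdown libraries and listed at 0 in the control; it passed the filter only through the hairpin 2 library. The cell cycle inhibitors CDKN1A and CDKN1B were at 54.7 and 18.49 with hairpin 1 and at 54.17 and 18.17 with hairpin 2, against 67.77 and 17.12 in the control. Of 9 other Notch-responsive genes, 6 were lower with hairpin 1 and 7 with hairpin 2, with medians of -0.09 and -0.37. CCND1, the G1 cyclin, was at 230.8 and 168.74, against 245.47 in the control, and the adhesion receptor CD44 at 45.82 and 45.62, against 72.66. IL7R, a Notch target of lymphocytes, was at 8.59 with hairpin 1 and 2.74 with hairpin 2, against 10.75 in the control.

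Chromosomal neighbours of the members were compared after the values were seen. Of 39 tested protein-coding genes among the 3 nearest on either side of each member, 1 was at least 2-fold higher with hairpin 2, where 3.63% of all genes were, and their median difference was -0.04. With hairpin 1, 31 of the 39 were lower than the control, where 52.1% of all genes were, and their median was -0.21, beside 8 of 9 and -0.27 for the tested members. ISG15, beside HES4 and known for its interferon response, was at 37.44 and 37.89, against 58.49 in the control, while HES4 was at 29.26 and 81.75, against 33.2. The neighbour past 2-fold with hairpin 2 was STMN2, a gene of neurons beside HEY1, listed at 0 with hairpin 1, at 2.84 with hairpin 2 and at 0 in the control, so it passed the filter only through hairpin 2. With hairpin 1 the 1 neighbour past 2-fold was GPR153, an orphan receptor gene near HES2, at 2.91 with hairpin 1 and 6.52 with hairpin 2, against 7.34 in the control.

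Genes whose pair of differences lay nearest to that of a member were sought among 8211 genes with a control value of at least 5, over 3 libraries only. For HES1 these were ZC3H7A, MVK and PAQR3, at distances up to 0.0105 in log2 units. For HES4 they were UPK1B, SELENOM and EEF2, up to 0.131. UPK1B, a membrane protein of the urothelium, was nearest to HES4, at 24.98 and 69.52, against 28.47 in the control. SESN2, CKB and FAM69B lay nearest to HEY1, and GLA, FAM89A and EPB41 to NRARP. No member was among the nearest genes of another. Only 3 genes were kept per member, and members with a control value under 5 could not appear, so this says little about shared patterns.

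The m6A list places 10 of its 15940 regions in 6 of the 10 genes: HES1, HES2, HES4, HEY1, HEYL and NRARP. It names HES5, HES6, HES7 and HEY2 in none. Regions carry no score in the list, and no source says if the immunoprecipitations were pooled, so regions are described by place and length only. The processing notes name hg38, but the transcript start that the list implies for HES1, chromosome 3 position 193853930, lies far from the GRCh38.p14 window printed above, and the same held for 5 of 5 members compared. Positions below are those of the list, in a build that is not GRCh38, and no sequence was read from them.

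HES1 and NRARP each had 2 regions. In HES1 the first, of class 5′ UTR, lay at chr3:193853859-193854062 and covered the transcript start. The second, of class Exon/CD, lay at chr3:193855865-193856079, centred 2042 bases from the start. NRARP had a region of class Exon/CD at chr9:140196011-140196419, centred 488 bases from the start, and one of class 3′ UTR at chr9:140195584-140195811, centred at 1006 bases. Both genes thus had regions of exon or UTR class, and their log2 differences were -0.25 (HES1) and -0.52 (NRARP) with hairpin 1, and -0.01 and 0.77 with hairpin 2.

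HEY1 had 1 region of class Exon/CD, 752 bases long, at chr8:80677369-80678120. HEYL had 1 region of class 3′ UTR at chr1:40090781-40092199. At 1419 bases it was among the longest of the list, where the median was 316 bases and 0.916% of regions were at least as long. Its transcript was at 1.83 and 2.6 in the knockdown libraries and at 1.98 in the control.

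HES4 and HES2 had regions outside exons by the list's classes. The HES4 region, at chr1:935853-936173, was of class Upstream and spanned positions -621 to -301 relative to the transcript start. HES2 had 3 regions of class Intron, at chr1:6475435-6475999, chr1:6476811-6477231 and chr1:6478166-6479019. They lie 6138 to 9013 bases from the start of the list's HES2 transcript, whereas RefSeq's HES2 gene spans 4688 bases. The list thus uses a longer transcript, and the class refers to it. The list is in another build, so whether the regions fall in exons of RefSeq's HES2 was not tested. No region of another gene lay within 2000 bases of any member's region.

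**Figure D4:**
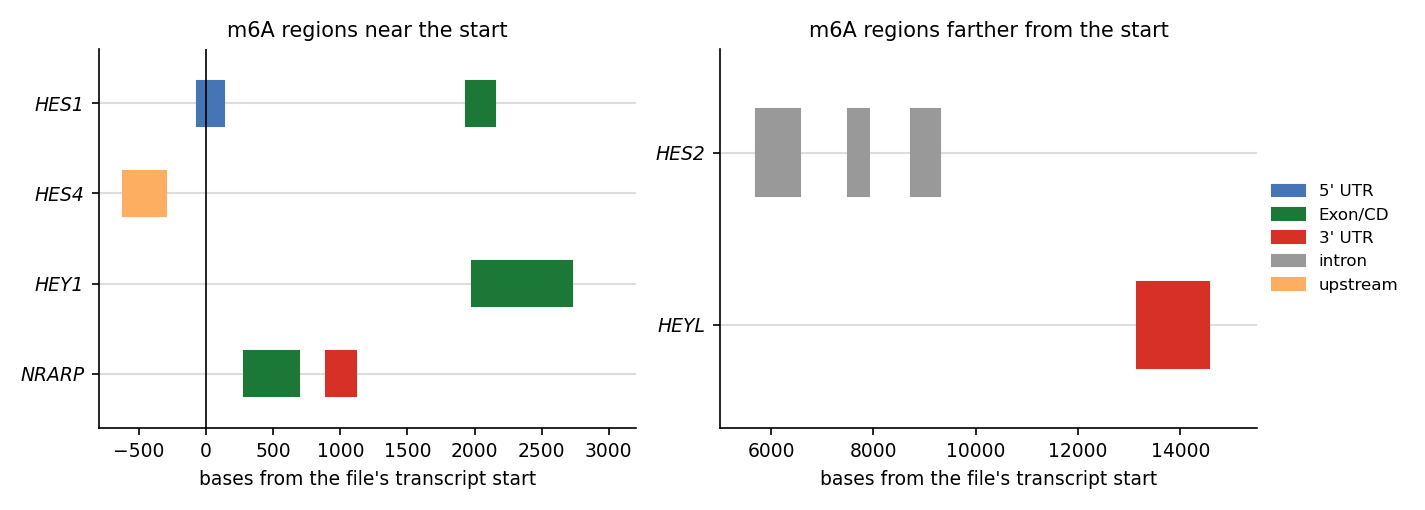
The 10 m6A regions of the 6 members that have one, as bases from the transcript start that the list implies; bars span each region and colours give its class. HES1 has a bar across its start, and the HES2 bars lie between 5711 and 9295 bases from it.

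The share of genes with a region differed with their value in the control. Of genes with a control value under 1, 14% had a region, and HES5, HES7 and HEY2, all in that range, had none. Of genes between 1 and 5, 54.9% had one and 13.6% had 3 or more; HES2 (2.14) had 3 and HEYL (1.98) 1. Of genes between 5 and 20, 58.8% had one, as did HEY1 and NRARP but not HES6 (6.96). Of genes between 20 and 100, 51.2% had one, as did HES1 and HES4, and of genes at 100 or more, where no member lay, 33.7%. By class, 3 of the 10 regions were Exon/CD, 3 Intron, 2 3′ UTR, 1 5′ UTR and 1 Upstream, against 34.1%, 23.5%, 21.5%, 11.6% and 7.84% of all regions.

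Members with and without a region of class exon or UTR can be set side by side. With hairpin 1 the 4 with one, HES1, HEY1, HEYL and NRARP, had log2 differences of -0.25, -0.43, -0.07 and -0.52. HES2, HES4, HES5 and HES6, without one, were at -0.71, -0.18, -0.27 and -0.48, and HEY2 at 0.35, so the ranges overlapped. Over all tested genes the median was -0.02 with such a region (5253 genes) and -0.01 without (7120 genes). With hairpin 2 the 4 members with one were at -0.01 (HES1), 1.47 (HEY1), 0.27 (HEYL) and 0.77 (NRARP). Those without were at 0.03 (HES2), 1.27 (HES4), 2.29 (HES5), 0.50 (HES6) and 1.98 (HEY2), and the ranges again overlapped. Over all tested genes the hairpin 2 median was -0.03 with such a region and 0.03 without, and 53.8% against 46.6% of genes were lower than the control. Genes that passed the filter only through hairpin 2 had to be higher there. Their control values were under 1, where 10.3% of genes had such a region, against 46.1% between 1 and 5. The medians and shares were not recomputed without them, so this contrast cannot be told apart from the filter and the level of the genes. The immunoprecipitations are of cells with normal METTL3, so a loss of methylation in the knockdown lines was not measured.

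Elsewhere in the pathway, regions were listed for 3 of 4 receptors, 3 of 5 ligands and 7 of 9 nuclear factors, against 39.4% of all genes in the expression table and the 51.2% to 58.8% given above for genes with a control value between 1 and 100. The nuclear factors together held 25 regions, RBPJ and all 3 MAML genes among those with one. Of the related helix-loop-helix genes, 3 of 10 had a region, ID2 among them and ID4 not.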

How the data were processed

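Per the submitters' processing notes, reads were aligned with TopHat2, counted with HTSeq and, for the immunoprecipitations, peaks were called with MACS2. For these tools, versions and settings are not given here, since no source names them. The deposited expression values are a signal per gene with 2 decimals in a unit the authors do not state. They are neither whole numbers nor steps of a fixed size shared by genes, so depth is unknown and no count test was run. Levels of different genes enter the marker sums, the choice of genes to name and the ranges of control value. The unknown unit limits all of these. Distances in the deposited region list, as the authors give them, run from an annotated transcript start to the region's middle.

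Values were transformed to log2(value + 1), which understates differences of low genes. A gene was tested if any library reached a value of 1. Each hairpin was set against the control without a test. Both hairpins against the control were fitted with limma (version 3.58.1, R 4.3.3; moderated variances with a trend; Benjamini-Hochberg adjustment over all genes tested), a script tested on simulated data. Tables were handled in Python 3.11.15 (pandas 2.3.3, numpy 2.4.6) and plots drawn with matplotlib 3.10.9. Motifs were searched on both strands.

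Of each pathway list, the 2 genes with the highest control value were named. Any gene of these lists at least 2-fold from the control with a value of at least 5 was named too. All marker genes named, and a few others (RBPJ, GATA4, GPR153, ISG15, STMN2), were named outside that rule, after their values were seen. The genes nearest to HES6 are not reported here. Members, gene lists and marker lists were chosen with earlier results of these data known. Alternatives were other pseudocounts, scalings, filters, a fit without trend, leaving out each knockdown library, and other ways of matching regions. Neuroendocrine markers were listed as well and summed to 1.75 with hairpin 1 and 8.24 with hairpin 2, against 1.22 in the control.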

Additional observations from a re-analysis of the deposited data

How the results depend on the processing

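No member or gene passed limma's adjusted p of 0.05 under any of the 6 other settings tried, with 123 to 444 genes at an unadjusted p under 0.05. The count of members at least 2-fold from the control with hairpin 2 was 4 or 5 of 10 under 3 other settings, where 4.24% to 7.82% of tested genes were. The count of 5, with a pseudocount of 0.1, includes HES7 (1.35), which did not pass the filter and is not among the tested genes. Of the 7 members that passed the filter without that library, 2 were past 2-fold under each setting. With hairpin 1 the count over all members was 0 with either other scaling and 2 with a pseudocount of 0.1 (2.08% of tested genes). The both-hairpin difference of HES6, 0.0093, was -0.0017 with a pseudocount of 0.1; the cause was not tested. The number of members with a region was 6, and 4 with exon and UTR classes only.

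Leaving out a knockdown library leaves 1 against 1 and no test. The difference then ranged from -0.71 to 0.03 for HES2, -0.18 to 1.27 for HES4, -0.27 to 2.29 for HES5, -0.48 to 0.50 for HES6, -0.43 to 1.47 for HEY1, -0.07 to 0.27 for HEYL and -0.52 to 0.77 for NRARP, so their sign depends on which library is used. HES1 (-0.25 to -0.01) and HEY2 (0.35 to 1.98) kept theirs. The -0.01 of HES1 with hairpin 2 was 0.01 after quantile normalization, though. HEY2 passed the filter only through hairpin 2 and so had to be higher there. No paired analysis was possible because the control is 1 library without a number. Depth is unknown and limits low values most.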
